A study of Drosophila melanogaster with 6 samples.

Results

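Antimicrobial peptide genes of the fruit fly were read in whole male larvae whose mothers had eaten ordinary or sugar-rich food. The list held 10 genes (AttA, AttC, AttD, CecA1, DptA, DptB, Dro, Drs, Mtk and Def), and a gene was read where the platform's probe table gave it a probe set of its own. That was the case for 5 of the 10 (AttD, DptB, Drs, Mtk and Def), each with 1 probe set, out of 11981 genes so read on the array. AttA, AttC, CecA1, DptA and Dro were not analysed here, and none of the 10 had a shared probe set.

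The larvae came from the white-eyed laboratory strain w1118, and no other allele or agent is named in the labels. For 7 days the virgin mothers had semi-defined food that held 0.15 M sucrose in the control group and 1 M in the high-sucrose group, before mating with males on control food. By the design text all embryos were laid on control food, the flies were kept at 25 C, and larvae of both groups spent 12 h on fresh control food before collection. The titles instead call the larvae themselves control or high sugar reared; the groups here follow the characteristics, which assign the diets to the mothers. There were 3 arrays a group. On stage the labels conflict, with wandering larvae in the titles and the middle of the same instar in the characteristics and design text. The titles number the arrays as biological replicates, and the number of larvae or mothers behind each is not stated.

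Antimicrobial peptides are short secreted proteins that kill bacteria and fungi, and in the fly the larval fat body releases most of them into the blood, with local production in gut, trachea and other epithelia. Their genes are switched on by NF-kappaB factors at the end of the Toll and Imd pathways. Toll answers mainly to fungi and to many Gram-positive bacteria and acts through Dif and dorsal, and Imd answers to the peptidoglycan of Gram-negative bacteria and acts through Relish. Drosomycin (Drs) is the classical Toll readout in the fat body, diptericins and attacins are classical Imd readouts, and metchnikowin (Mtk) and defensin (Def) answer to both.

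None of the 5 genes differed between the maternal diets beyond the spread between arrays. In the limma fit over all probe sets, 0 of 5 passed an adjusted p of 0.05 (Benjamini-Hochberg), 0 of 5 had an unadjusted p below it (12.4% of all tested probe sets did), and in 0 of 5 did the groups fail to overlap. Of all 18769 tested probe sets 0.623% were called and 18.5% did not overlap. The median log2 difference of the 5 genes, high-sucrose minus control on log2(intensity + 16), was 0.029, beside -0.034 over all tested probe sets. Arrays of the same maternal diet lay far from each other for most of these genes, with within-group SDs of 0.26 to 1.83 on the log2 scale and a median of 0.90, beside a median of 0.14 over all tested probe sets. In a whole larva, fewer cells of a type and less RNA per cell cannot be told apart, and an intensity compares arrays within 1 gene, not genes with each other.

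**Figure D1:**
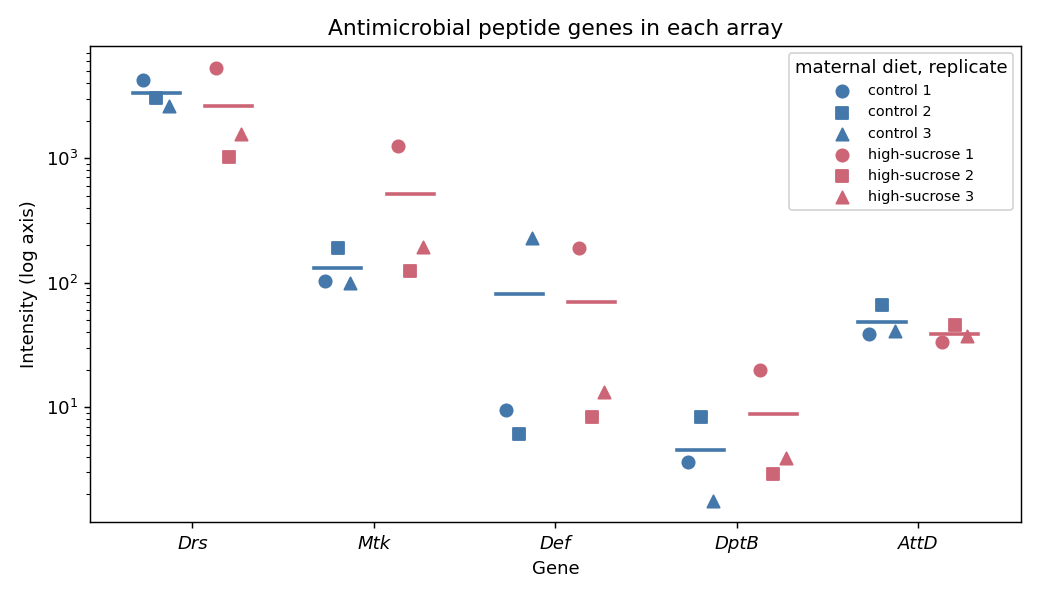
Intensity (log axis) of the 5 measured antimicrobial peptide genes in each of 6 arrays, with control arrays in blue, high-sucrose arrays in red, a marker shape per replicate and a bar at each group's arithmetic mean. The array of high-sucrose replicate 1 was the highest of the 6 for Drs, Mtk and DptB, and the groups overlapped for every gene shown.

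Drs, the antifungal peptide drosomycin, had an intensity of 4213, 3062 and 2642 in control replicates 1, 2 and 3. In high-sucrose replicates 1, 2 and 3 it was at 5335, 1022 and 1568. High-sucrose replicate 1 thus lay above all control arrays and the other 2 high-sucrose arrays below all of them. The means were 3306 ± 813 in control and 2642 ± 2349 in high-sucrose arrays (SD, n = 3 each, as throughout). The log2 difference was -0.66 ± 0.49 (SE; 95% interval -1.76 to 0.44; limma adjusted p = 0.621). Leaving out high-sucrose replicate 1 or 2 moved this value more than any of the 3 other scalings did. Without high-sucrose replicate 1 the log2 difference of Drs was -1.35 ± 0.21 (adjusted p = 0.0544), and without high-sucrose replicate 2 it was -0.16 (adjusted p = 0.924).

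Mtk, a proline-rich peptide active against fungi and bacteria, had an intensity of 102, 191 and 100.1 in control replicates 1 to 3. It was at 1245, 123 and 192 in high-sucrose replicates 1 to 3. A single array stood out: high-sucrose replicate 1 was 10.1 times the median of the other 5, which lay within the range of 100.1 to 192. The means were 131 ± 52.1 and 519.9 ± 629, with a log2 difference of 1.23 ± 0.67 (95% interval -0.29 to 2.75; limma adjusted p = 0.498). Without high-sucrose replicate 1 it was 0.26 (adjusted p = 0.816).

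Def, a cysteine-rich peptide directed mainly at Gram-positive bacteria, was near the bottom of the scale in 4 arrays and well above it in 1 array of each diet. It had 9.50, 6.05 and 228 in control replicates 1 to 3, and 189, 8.30 and 13.3 in high-sucrose replicates 1 to 3. The 4 low values lay under the lower quartile of their own arrays, and the 2 high values above the array median. Highest and lowest arrays lay 3.47 apart on log2(intensity + 16), while the group means were 81.1 ± 127 and 70.1 ± 103. The log2 difference was 0.029 ± 0.99 (95% interval -2.21 to 2.27; adjusted p = 0.994), so that differences of several-fold either way lie within its error. Control replicate 3, the array with the most Def, was the lowest array for Mtk and DptB.

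DptB, a diptericin induced through Imd, was dim throughout. Its intensities were 3.63, 8.29 and 1.78 in control replicates 1 to 3 and 19.8, 2.90 and 3.94 in high-sucrose replicates 1 to 3. In 5 of 6 arrays the value was under the lower quartile of the array (12.2 to 14.6 over the 6 arrays), and in high-sucrose replicate 1 it was above it. The log2 difference was 0.22 ± 0.24 (95% interval -0.32 to 0.77; adjusted p = 0.753). The values used here hold no detection calls, so it is not known in which arrays DptB was detected.

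AttD, an attacin without the secretion signal that marks the other attacins, was the least variable of the 5. It had 38.9, 66.1 and 40.9 in control replicates 1 to 3 and 33.6, 45.9 and 37.1 in high-sucrose replicates 1 to 3. Unlike the others it was lowest in high-sucrose replicate 1 and highest in control replicate 2. Its means were 48.6 ± 15.2 and 38.9 ± 6.36, and the log2 difference was -0.22 ± 0.17 (95% interval -0.61 to 0.17; adjusted p = 0.653).

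The spread of the other 4 genes was large for any probe set on the array. On log2(intensity + 16), the within-group SD was 1.83 for Def, 1.24 for Mtk, 0.90 for Drs and 0.40 for DptB. Each was above that of 97.9% or more of all tested probe sets, and that of AttD, 0.26, above 86.0%. Set against the 1000 probe sets nearest in mean intensity, the SD of Drs was above 99.9%, that of Mtk above 99.8%, that of DptB above 98.9% and that of AttD above 83.3%. Among the 20 probe sets with the largest within-group SD on the whole array, 2 were Def and Mtk and 5 were genes of the related Bomanin family, a count made after the values were seen. Of the other 13, 7 carried no single gene name and 6 were genes of neither kind. Among the 7 was the probe set shared by CG10332 and IM18, a peptide of the further list below. In 14 of these 20 probe sets high-sucrose replicate 1 was the highest array.

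**Figure D2:**
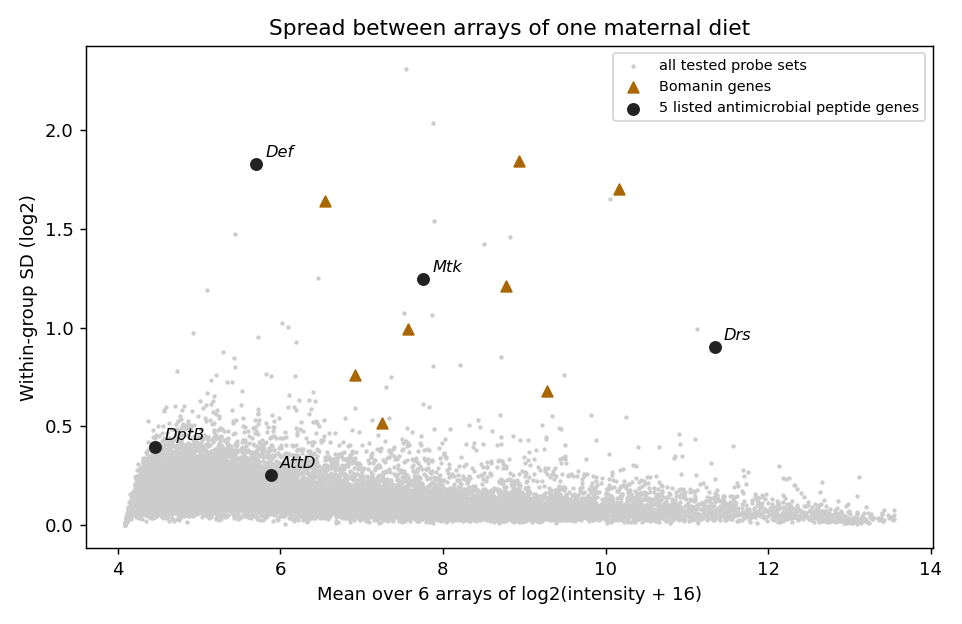
Within-group SD of log2(intensity + 16) against the mean over 6 arrays for all 18769 tested probe sets (grey), 8 Bomanin genes (triangles) and the 5 measured peptide genes (labelled dots). Def, Mtk and Drs and the 8 Bomanin genes lie among the highest points at their intensity, though some grey points lie as high or higher. AttD lies within the grey cloud.

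Further antimicrobial and immune-induced peptides were read from a list of 33, of which 19 had a probe set of their own. An unadjusted p under 0.05 was found in 12.4% of all tested probe sets and in 2 of these 19. None of the 19 passed in either direction by limma. Their median log2 difference was -0.098, with 15 below 0 and 4 above, beside a median of -0.034 over all tested probe sets. The Bomanins were set apart from the rest after the values were seen. The 8 measured ones, short peptides released into the blood under Toll control, had within-group SDs from 0.52 to 1.84, all above the 90th percentile of tested probe sets. The remaining 11, among them CecB, edin, Listericin, IM33 and 6 relatives of Drs, had SDs from 0.072 to 0.38, of which 2 were above that percentile. Anp, Drsl1 and Drsl6 among these lay under the lower quartile in every array, where the pseudocount shrinks an SD.

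BomS2, a short Bomanin, had 3020, 2081 and 1371 in control replicates 1 to 3 and 3895, 365 and 158 in high-sucrose replicates 1 to 3. High-sucrose replicate 1 was above, and the other 2 high-sucrose arrays far below, the 3 control arrays, the placement also seen for Drs. BomBc2 had 1383, 958 and 586 in control and 1674, 179 and 36.0 in high-sucrose replicates 1 to 3. Drs, BomS2, BomS5, BomS6 and BomBc2 shared 1 order of arrays: high-sucrose replicate 1 highest, then control replicates 1, 2 and 3, then both remaining high-sucrose arrays. That order, picked out after the values were seen, was met by 0.213% of all tested probe sets. High-sucrose replicates 2 and 3 were the 2 lowest arrays in 7 of 8 Bomanins and in 1 of the 5 listed genes, Drs. They were so in 1 of the 11 remaining peptides, Drsl5, and in 6.63% of all tested probe sets.

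BomT3, like Mtk, stood out in a single array. It had 51.7, 47.7 and 70.0 in control replicates 1 to 3 and 741, 44.0 and 23.3 in high-sucrose replicates 1 to 3. Its log2 difference was 0.76 ± 0.89 (adjusted p = 0.778). The probe set shared by IM18 and CG10332 lay highest in the same array, at 807, with 90.7 to 148 in the other 5. High-sucrose replicate 1 was the highest array for 3 of the 5 listed genes (Drs, Mtk and DptB), for 7 of 8 Bomanins and for 2 of the 11 remaining peptides, beside 10.2% of all tested probe sets.

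**Figure D3:**
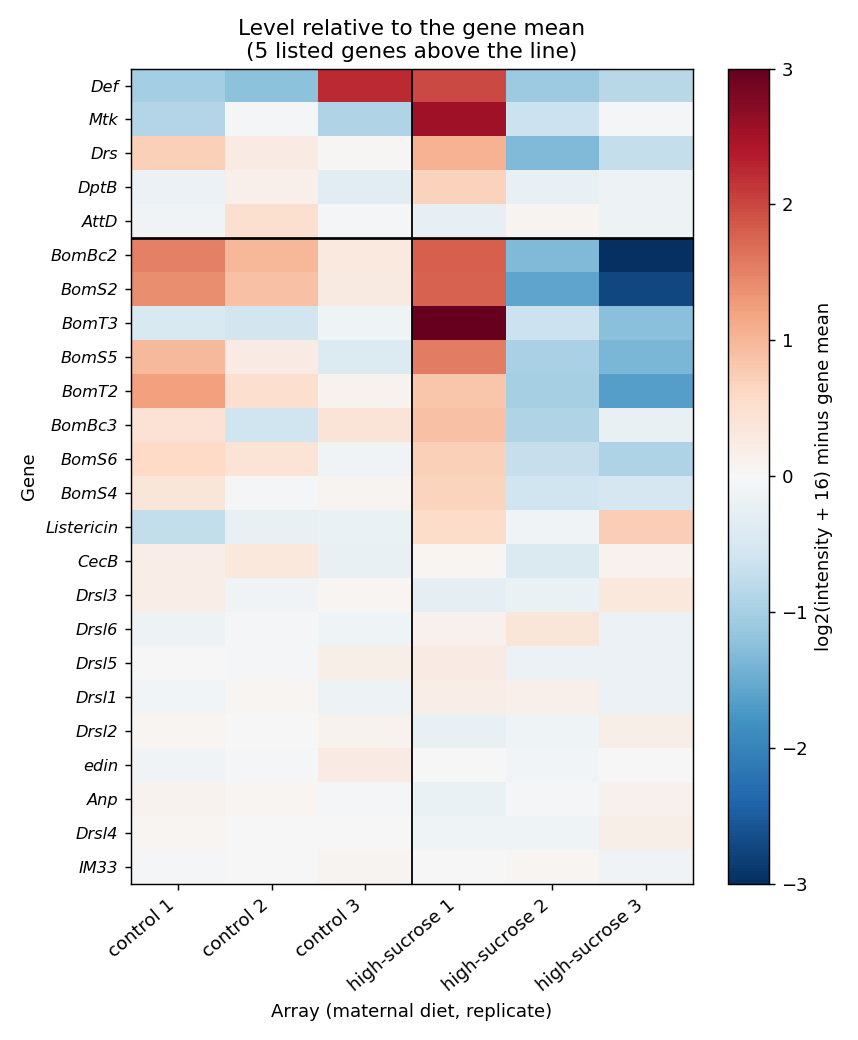
log2(intensity + 16) minus the mean of the gene over 6 arrays, for the 5 listed genes (above the line) and 19 further peptide genes, with control arrays left and high-sucrose arrays right of the vertical line; rows are sorted by within-group SD and colours stop at 3 in either direction. Drs and 7 of 8 Bomanins (all but BomT2) are highest in high-sucrose replicate 1. In Drs, Drsl5 and 7 of 8 Bomanins (all but BomBc3) high-sucrose replicates 2 and 3 are the 2 lowest arrays. Mtk and BomT3 are high in 1 array, and IM33 and Drsl4 hardly move.

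The Bomanins' differences between the diets had wide errors as well. The log2 difference was -1.70 ± 0.92 for BomS2 (95% interval -3.77 to 0.37; adjusted p = 0.491). It was -1.86 ± 0.996 for BomBc2 (adjusted p = 0.488) and -1.23 ± 0.54 for BomT2 (adjusted p = 0.402). Without high-sucrose replicate 1, an array left out after its values were seen, BomS2 was at -3.01 ± 0.36 (adjusted p = 0.0168) and passed, while BomBc2 (-3.22; adjusted p = 0.0554), BomT2 (-1.94; 0.0544), BomS6 (-1.10; 0.062) and the other 4 did not. In that fit 0.224% of all tested probe sets were called. BomT3 then had a log2 difference of -0.57 (adjusted p = 0.487), the reverse of its sign with all arrays. With 2 high-sucrose arrays left, none of the 5 listed genes passed, and 1 of them, Mtk, was above 0.

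Listericin, an antibacterial peptide, was the 1 measured peptide whose groups did not overlap. It had 73.3, 112 and 115 in control replicates 1 to 3 and 203, 124 and 232 in high-sucrose replicates 1 to 3, a log2 difference of 0.78 ± 0.22 (adjusted p = 0.18). It did not pass with all 6 arrays, and without high-sucrose replicate 2 it did (adjusted p = 0.0389, with 0.868% of tested probe sets called). Of all tested probe sets, 5.96% were likewise higher with no overlap. None of the relatives of Drs, Drsl1 to Drsl6, shared its full order of arrays. Drsl5 did share its placement, at 14.3, 13.8 and 18.6 in control replicates 1 to 3. It had 20.2, 11.3 and 11.4 in high-sucrose replicates 1 to 3, and 3 of its values lay under the array's lower quartile. Drsl2, by contrast, lay between 1605 and 1727 in control arrays and between 1365 and 1800 in the others (adjusted p = 0.636).

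In the pathways that switch these genes on, PGRP-SC2 was the 1 measured gene to pass. Of 13 measured genes that carry the Imd signal, 0 passed by limma, with a median log2 difference of -0.030. An unadjusted p under 0.05, which 12.4% of all tested probe sets had, was found in 3. Those were Rel, the Relish factor itself (699 ± 40.9 and 611 ± 16.5; log2 difference -0.19, adjusted p = 0.243), and the recognition proteins PGRP-LE (-0.15; 0.367) and PGRP-LA (-0.25; 0.402). Of 9 measured inhibitors of Imd, 1 fell and 8 did not pass (0.57% of all tested probe sets fell). All 9 were below 0, with a median of -0.046, beside -0.034 over all tested probe sets. PGRP-SC2, an amidase that degrades peptidoglycan, had 3382, 3294 and 2972 in control replicates 1 to 3 and 1927, 2046 and 2332 in high-sucrose replicates 1 to 3. It fell by 0.61 on the log2 scale (± 0.077; adjusted p = 0.0125), but did not pass without control replicate 2 (-0.59; adjusted p = 0.104). With the replicate number as a block its adjusted p was 0.0479, and without the intensity trend in the variances it did not pass (0.192). Its within-group SD was 0.12, so it did not share the spread of the peptide genes. The inhibitors pirk, which blocks the Imd receptors (216 ± 13.3 and 163 ± 19.3; -0.38, adjusted p = 0.133), and CYLD, a deubiquitinase (-0.34; 0.192), did not pass. The probe set shared by PGRP-SC1a and PGRP-SC1b had a log2 difference of -0.27 (adjusted p = 0.354).

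Of 15 measured genes of the Toll pathway, from recognition proteins to the NF-kappaB factors, 0 passed by limma. Of these 15, 2 had an unadjusted p under 0.05 (12.4% of all tested probe sets did). The median log2 difference was -0.13, with 14 below 0. Over all tested probe sets the median was -0.034 (-0.044 in the brighter 50%), so most of them lay below 0 as well. How many of the 15 stay below 0 under another scaling was not tested. With 1 probe set a gene, the smallest p belonged to psh, the protease Persephone that senses microbial proteases in the blood (156 ± 8.21 and 112 ± 16.5; log2 difference -0.43, adjusted p = 0.144). Myd88, an adaptor of the receptor Toll, was at -0.16 (adjusted p = 0.366), and grass, a protease of the same cascade, at -0.15 (0.521). SPE, the protease that cuts the Toll ligand spz into its active form, was chosen after its values were seen. It had 285, 244 and 283 in control replicates 1 to 3 and 332, 195 and 142 in high-sucrose replicates 1 to 3. High-sucrose replicate 1 was again the highest and the other 2 high-sucrose arrays the lowest, and its within-group SD of 0.42 was above that of 98.4% of tested probe sets. The ligand spz itself lay within 250 to 284 in all 6 arrays, and the inhibitor cact within 487 to 573. Another gene of the list, nec, had the placement of SPE. It had 351, 340 and 319 in control and 389, 300 and 299 in high-sucrose replicates 1 to 3. High-sucrose replicate 1 was the highest array for 3 of the 15 (SPE, spz and nec), beside 10.2% of all tested probe sets. A further probe set of dl, the dorsal factor, had a log2 difference of -0.42 (adjusted p = 0.119) beside -0.18 (0.683) for the brighter one.

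Of 8 measured further regulators of peptide genes 0 passed by limma. An unadjusted p was under 0.05 in 2 of them, beside 12.4% of all tested probe sets. GATAe, a midgut GATA factor, was at 149 ± 20.9 and 111 ± 6.63 (log2 difference -0.37; adjusted p = 0.186), nub at -0.21 (0.343) and the fat body GATA factor srp at 0.13 (0.539). In each of the 6 fits that left out 1 array, 0 genes of the Imd signal list, the Toll list and this list passed.

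**Figure D4:**
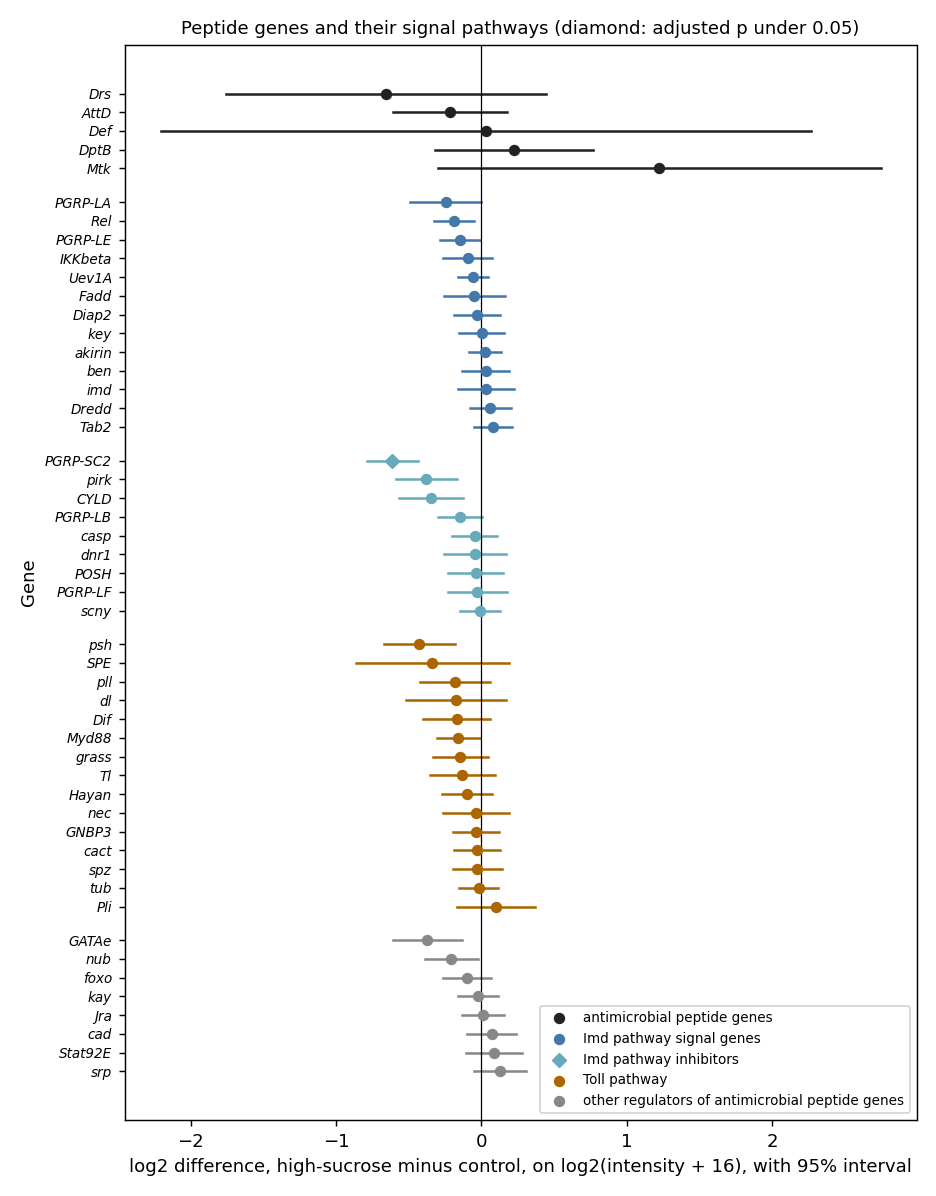
log2 difference between maternal diets (high-sucrose minus control, on log2(intensity + 16)) with its 95% interval from limma for the 5 listed genes and the measured genes of the Imd pathway, its inhibitors, the Toll pathway and other regulators; a diamond marks an adjusted p under 0.05. The intervals of Def, Mtk and Drs are several times wider than those of nearly all pathway genes, and PGRP-SC2 alone carries a diamond.

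Markers of the tissues that make these peptides were read in the same arrays. None of the markers was at 0. The 4 measured fat body markers of 7 summed to 34641 to 36681 in control arrays and to 33120 to 33876 in the high-sucrose ones, with 33120 in high-sucrose replicate 1. Among these 4, Lsp2 was at 10959 to 12672 over the 6 arrays, near the top of the scale. Array maxima were lower after the maternal high-sucrose diet, at 11771 to 12076, than after the control diet, at 12783 to 13046. Whether the scale bears on the difference in the fat body sums was not tested. The 8 haemocyte markers, of the blood cells, summed to 7523 to 8658 and 7270 to 7674, with 7479 in high-sucrose replicate 1. Among them He, a haemocyte surface gene, fell by 0.39 on the log2 scale (limma adjusted p = 0.0282). He did not pass when any 1 array was left out (adjusted p up to 0.135) or with the replicate block (0.0714). Nor did it pass without the intensity trend (0.216), or under quantile scaling (0.0775) and cyclic loess (0.0686). The 7 other haemocyte markers did not pass. Of the 8, 5 lay below 0: He, NimC1 (-0.31), PPO1 (-0.24), PPO2 (-0.19) and crq (-0.05). Above 0 were 3: Hml (0.11), Pxn (0.20) and eater (0.06). A further, dimmer probe set of Pxn was at -0.32 (adjusted p = 0.446). The 6 measured midgut markers of 7 summed to 30211 to 31878 in control arrays and to 23930 to 25221 in the high-sucrose ones, a difference in the direction of PGRP-SC2, whose part in that gene's fall was not tested. Of these 6, 3 fell by limma (Jon99Ci, Jon74E and Mal-A1), beside 0.57% of all tested probe sets, and 1 (Jon74E) did without control replicate 2. In 5 of the 6 the high-sucrose arrays lay below all control arrays. Of all tested probe sets 18.5% had no overlap in either direction, of which 5.96% lay higher and the rest lower. The 4 measured markers of trachea and epidermis of 5 summed to 7661 to 8573 and 7358 to 8249. In none of these sums was high-sucrose replicate 1 the highest array, which it was for 10.2% of all tested probe sets. Of the single haemocyte markers, 2 of 8 (Pxn and eater) were highest in that array. Whether tissue content bears on its peptide values was not tested.

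Genes other than the 5 were ranked by how closely their levels over the 6 arrays followed the mean of the 5 listed genes. The measure was the root mean square distance between centred log2(intensity + 16) profiles. It was taken among 80 candidate probe sets, kept for a large range over the arrays with no upper limit. The nearest were Nepl11 (0.24), CG31326 (0.31), Bbd (0.34), BomBc3 (0.41) and epsilonTry (0.42), against 0.37 (DptB) to 1.08 (Def) for the 5 genes themselves. Bbd, or bombardier, is known to be needed for short Bomanins to reach the blood. It had 862, 609 and 541 in control replicates 1 to 3 and 1713, 488 and 495 in high-sucrose replicates 1 to 3 (log2 difference 0.18; adjusted p = 0.9). Nepl11, of the neprilysin-like family, had 13.2 to 16.3 in 5 arrays and 70.2 in high-sucrose replicate 1.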

How the data were processed

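Biotinylated cRNA made from 2 ug of total RNA of whole male larvae was hybridised to Affymetrix arrays, per the labels' protocols. The deposited values are linear intensities, 1 per probe set and array; the sources used here do not state how the authors summarised, background-corrected and scaled them. Array medians were 51.5 to 55.7, and no further scaling was applied. The number of arrays, 6, limits the precision.

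Genes were named from the platform's probe table, updated through gene IDs in a RefSeq table of Release 6 plus ISO1 MT. Control probe sets (183 of 18952) were left out. Where a gene had more than 1 probe set, the brightest stood for it. log2(intensity + 16) was fitted in R 4.3.3 with limma 3.58.1 (2 groups, intensity trend in the variances, Benjamini-Hochberg over all 18769 probe sets, threshold 0.05). The pseudocount understates changes of dim genes.

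The members and lists were chosen with earlier results of these data known. Named were all measured members, the 3 genes with the smallest p in each pathway list (further peptides, Imd signal genes, Imd inhibitors, Toll pathway, other regulators), any called, and the 5 nearest in profile; Bomanins, the Drs relatives, SPE, spz, cact, He and others were chosen after their values were seen. Markers of fat body, haemocytes, midgut, and trachea and epidermis were summed. Alternatives were a replicate block, 3 scalings, pseudocounts of 1 and 64, the brighter 50% of probe sets, no intensity trend, and fits that each left out 1 array. The alternatives for further peptides, PGRP-SC2 and He were added after the values were seen.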

Additional observations from a re-analysis of the deposited data

How the results depend on the processing

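The count of 0 of 5 listed genes called held in all 14 alternatives, with 3 of the 5 in the fit of the brighter 50% of probe sets. Their median log2 difference ran from -0.323 to 0.389 over the fits that left out 1 array, 1 group then resting on 2 arrays, and its sign carries no call. The median within-group SD was 1.24 in the brighter 50%, where DptB and AttD drop out. AttD, Drs and Mtk kept their sign in every alternative run. Def had -0.030 with a pseudocount of 64 and ran from -0.950 to 1.15 when 1 array was left out (-0.48 and -0.58 without control replicates 1 and 2), and DptB from -0.071 to 0.39. BomT3 had -0.57 without high-sucrose replicate 1; the cause of these sign changes was not tested. The count of further peptides called ran from 0 to 1 when 1 array was left out (1 without high-sucrose replicate 1 or 2), and was 0 under the 3 scalings. Over all probe sets 117 were called, 10 higher and 107 lower, against 63 with the replicate block, 4 without the intensity trend and 13 to 163 when 1 array was left out (13 without control replicate 2, 31 without control replicate 3, 42 without high-sucrose replicate 1 and 35 without high-sucrose replicate 3). The numbers share only a title: same-numbered arrays' deviations correlated at -0.072, 0.025 and -0.014 across probe sets, so the block pairs nothing known, and it changed no call among the listed genes (smallest adjusted p = 0.485) or further peptides (0.107). The signals of DptB and of 4 Def values near the array's lower quartile limit what can be read of them.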
